A study of Mus musculus with 9 samples.

Results

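Colonised livers were set against livers of germ-free mice that drank the main acids of gut fermentation, to ask what a live microbiota was accompanied by that acetate, propionate and butyrate alone were not. The 6 livers were chosen by their sample titles, 3 labelled ConvD and 3 labelled GF+SCFA, out of 9 in the series. All came from male C57BL/6J mice fed irradiated and autoclaved chow, and polyadenylated RNA of whole liver was sequenced. ConvD (conventionalised) mice were born germ-free, received cecal contents of conventionally raised chow-fed donors in 1 gavage at 15 weeks of age, and carried that microbiota for 4 weeks before dissection at 19 weeks; another field of the labels gives an age of 14 weeks. GF+SCFA mice stayed germ-free and had acetate at 67.5 mM, propionate at 25.9 mM and butyrate at 40 mM in filter-sterilised drinking water taken freely. The labels give neither how long the acids were supplied nor how much was drunk, and they do not give the time of day of dissection. The remaining 3 livers, labelled GF, came from germ-free mice with no supplement, and their values are given wherever levels are printed liver by liver. The labels give the mice of all 3 groups the same ages, 14 weeks in 1 field and 19 weeks at dissection. The colonised mice were kept in sealed filter-top cages, mice shared cages by colonisation status, and cage and group cannot be told apart. The design text calls the samples biological replicates and names no animal, so the p-values rest on the spread among these livers, which may be partly technical.

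The gut microbiota reaches the liver through the portal vein, which carries fermentation acids together with altered bile acids, other microbial metabolites and fragments of microbes. Short-chain fatty acids are taken up by monocarboxylate carriers, activated to coenzyme A esters for energy, lipid and glucose synthesis, and can also act on G protein-coupled receptors and inhibit histone deacetylases. Liver cells read the other signals through nuclear receptors such as PXR, CAR and FXR, through pattern recognition and interferon pathways, and through hormones that follow feeding and time of day.

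Of 12037 genes tested, 2216 (18.4%) passed an adjusted p of 0.05 between ConvD and GF+SCFA livers in edgeR's quasi-likelihood test with Benjamini-Hochberg adjustment, the test behind every adjusted p below. In ConvD livers 1136 genes (9.44%) were higher and 1080 (8.97%) lower, and these shares are the background for each list count that follows. A difference of at least 2-fold was found for 287 of them (2.38%), 204 higher (1.69%) and 83 lower (0.69%). In the same fit ConvD differed from GF livers in 1544 genes (12.8%), 714 higher (5.93%) and 830 lower (6.9%), and GF+SCFA from GF livers in 5 (0.0415%), 1 higher (0.00831%) and 4 lower (0.0332%); the 3 comparisons share livers. The 3 ConvD livers lay wholly above the 3 GF+SCFA livers in 2290 genes (19%) and wholly below in 2280 (18.9%), 4570 genes (38%) without overlap in all. Printed levels are CPM, counts scaled to a common library total, and differences are fitted log2 values, ConvD minus GF+SCFA unless said otherwise, with their standard error (SE) and 3 livers per group. Where a call was lost in a fit that left out 1 liver, the paragraph gives the highest adjusted p of the 9 such fits, the number of fits that lost it and the liver left out at that highest value. Libraries held 18193071 to 21627696 counts. The split of calls into higher and lower moved with the scaling: 51.26% of calls were higher with the scaling used, 66.83% with upper-quartile factors and 72.45% with plain library totals, under which the median gene lay at 0.06 and 0.08. With DESeq2 47.31% were higher, 959 against 1068 lower.

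**Figure D1:**
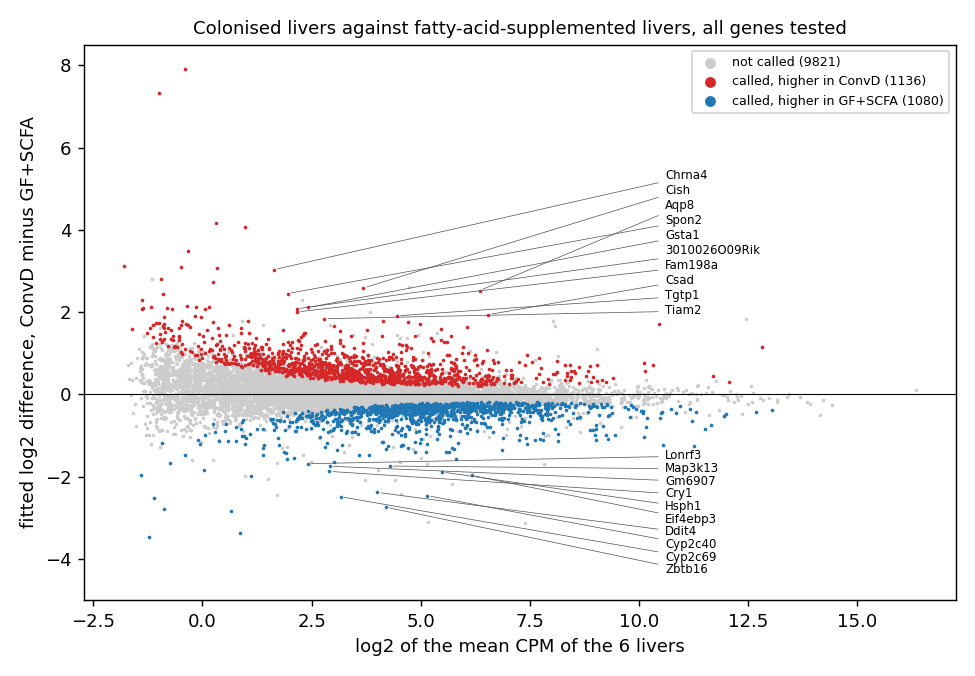
Each point is 1 of 12037 genes, with log2 of its mean CPM over the 6 livers on the x axis and the fitted log2 difference (ConvD minus GF+SCFA) on the y axis. Red points (1136) passed the test and were higher in ConvD, blue points (1080) passed and were higher in GF+SCFA, and the 10 largest differences in each direction with enough counts are named.

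Aqp8, a water channel of the hepatocyte's canalicular membrane and mitochondria, showed one of the 10 largest increases, at 193, 136 and 88.2 CPM in ConvD, 21.6, 30.04 and 20.7 CPM in GF+SCFA and 21.03, 31.5 and 23.3 CPM in GF livers. Every ConvD liver was above every other liver, and the GF+SCFA and GF livers overlapped. Aqp8 differed on the log2 scale by 2.52 (SE 0.34, adjusted p = 0.00429), with GF+SCFA minus GF -0.07 (95% interval -0.88 to 0.75). Csad, the enzyme that makes hypotaurine for taurine synthesis, stood at 176, 133 and 137 CPM in ConvD, 43.1, 40.2 and 33.1 CPM in GF+SCFA and 55.5, 62.4 and 59.7 CPM in GF livers. The 3 groups did not overlap, with GF+SCFA lowest. The fitted Csad difference was 1.94 (SE 0.12, adjusted p = 7.69e-06), with GF+SCFA minus GF -0.61 (95% interval -0.87 to -0.35), an interval not adjusted for the number of genes, as are all those given. Spon2, a secreted pattern recognition protein, gave 7.62, 6.15 and 5.899 CPM in ConvD, 1.42, 1.24 and 0.927 CPM in GF+SCFA and 1.901, 2.33 and 1.88 CPM in GF livers, again with no overlap between ConvD and the rest. For Spon2 the log2 difference was 2.45 (SE 0.20, adjusted p = 8.91e-06). Chrna4, a nicotinic receptor subunit, was at 9.51, 5.47 and 1.701 CPM in ConvD, 0.567, 0.497 and 0.982 CPM in GF+SCFA and 1.09, 0.594 and 0.845 CPM in GF livers, with a wide spread among the ConvD livers, all above the others. Chrna4 differed on the log2 scale by 3.03 (SE 0.68, adjusted p = 0.0215). Cish, a STAT5-induced inhibitor of cytokine signalling, was at 28.1, 22.6 and 15.4 CPM in ConvD, 4.59, 2.83 and 3.65 CPM in GF+SCFA and 2.88, 15.9 and 9.44 CPM in GF livers; ConvD lay above GF+SCFA, but GF overlapped both. The fitted Cish difference was 2.59 (SE 0.61, adjusted p = 0.0318). Tgtp1, an interferon-induced GTPase (1.91, adjusted p = 0.0318), Tiam2, a Rac exchange factor (1.84, adjusted p = 2.1e-05), Gsta1 (2.11, below), Fam198a (2.005, adjusted p = 0.00015) and the uncharacterised 3010026O09Rik (2.08, adjusted p = 1.45e-05) made up the other increases. The calls of Cish (adjusted p = 0.109, 6 fits) and Chrna4 (adjusted p = 0.0872, 4 fits) were lost without GF+SCFA replicate 2. The call of Tgtp1 (adjusted p = 0.0981, 6 fits) was lost without GF+SCFA replicate 1.

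Among the 10 largest decreases, Eif4ebp3, a repressor of cap-dependent translation, stood at 32.5, 30.9 and 24.8 CPM in ConvD, 103, 97.8 and 145 CPM in GF+SCFA and 75.9, 99.4 and 99.9 CPM in GF livers. The ConvD livers were below all the others. For Eif4ebp3 the log2 difference was -1.97 (SE 0.19, adjusted p = 0.000447). Ddit4, a brake on mTORC1 induced by glucocorticoids and stress, was at 5.63, 5.27 and 4.62 CPM in ConvD, 20.1, 18.9 and 42.1 CPM in GF+SCFA and 18.96, 14.9 and 20.9 CPM in GF livers, with GF+SCFA replicate 3 at more than 2 times its group mates. Ddit4 differed on the log2 scale by -2.38 (SE 0.36, adjusted p = 0.00583). Zbtb16, a transcription factor gene induced by glucocorticoids, gave 6.26, 3.81 and 4.41 CPM in ConvD, 20.6, 39.1 and 37.1 CPM in GF+SCFA and 12.2, 17.2 and 33.2 CPM in GF livers, and its ConvD livers lay below both other groups. The fitted Zbtb16 difference was -2.74 (SE 0.49, adjusted p = 0.0125). Cyp2c40 (-2.46, adjusted p = 0.00899) and Cyp2c69 (-2.49, adjusted p = 0.022) belong to a near-identical P450 family, so reads may be divided unevenly between them. The remaining decreases were those of Cry1 and Hsph1, described with the clock and the chaperones, of Map3k13, a stress kinase (-1.74, adjusted p = 0.0188), of Lonrf3 (-1.68, adjusted p = 0.00016) and of Gm6907 (-1.74, adjusted p = 0.0156). The calls of Cyp2c69 (adjusted p = 0.0821, 4 fits), Gm6907 (adjusted p = 0.061, 2 fits) and Zbtb16 (adjusted p = 0.0525, 1 fit) were lost without ConvD replicate 2. The call of Map3k13 (adjusted p = 0.0691, 3 fits) was lost without ConvD replicate 1.

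**Figure D2:**
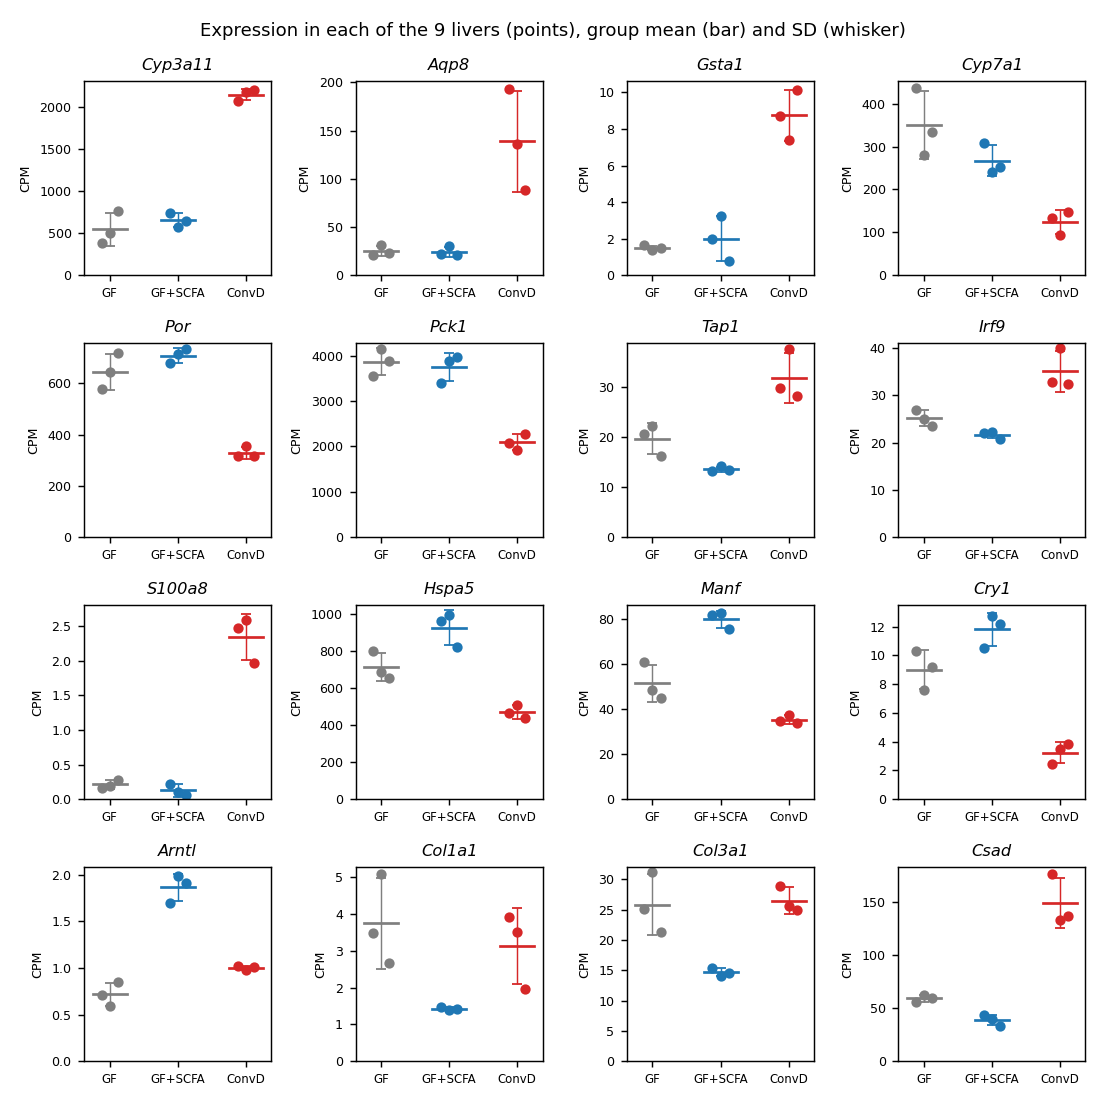
CPM of 16 genes in each of the 9 livers (points), with the group mean (bar) and SD (whisker, n = 3). ConvD livers stand apart from both germ-free groups for Cyp3a11, Aqp8, Por and Pck1, whereas GF+SCFA livers stand apart from both others for Col3a1 and Arntl.

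Genes of drug and xenobiotic handling differed in both directions. Of 36 tested genes on the list of targets of the receptors CAR and PXR, 10 were higher in ConvD and 8 lower, beside backgrounds of 9.44% and 8.97% (median difference -0.07, and 0.01 over all genes). The list includes Nr1i3, the gene of CAR itself, which is among the lower ones. Cyp3a11, the main PXR-induced P450, stood at 2070, 2172 and 2196 CPM in ConvD, 736, 576 and 650.5 CPM in GF+SCFA and 380.2, 497 and 762 CPM in GF livers. The ConvD livers were close together and above all others, and the supplemented livers lay within the range of the GF livers. For Cyp3a11 the log2 difference was 1.71 (SE 0.23, adjusted p = 0.00252), with GF+SCFA minus GF 0.26 (95% interval -0.27 to 0.79). Gsta1, a glutathione transferase, was at 8.73, 7.37 and 10.2 CPM in ConvD, 1.99, 3.23 and 0.763 CPM in GF+SCFA and 1.63, 1.39 and 1.502 CPM in GF livers, with the same order. Gsta1 differed on the log2 scale by 2.11 (SE 0.33, adjusted p = 0.00243). Cyp2c55 (1.49, adjusted p = 0.000138) and Cyp3a59 (0.99, adjusted p = 0.000194) were also higher, and both sit in near-identical families. Por, the reductase that passes electrons to microsomal P450 enzymes, was lower, at 316, 354 and 316 CPM in ConvD, 678, 714 and 734 CPM in GF+SCFA and 577, 645 and 717 CPM in GF livers. Its ConvD livers were below all 6 others, which overlapped between groups. The fitted Por difference was -1.11 (SE 0.09, adjusted p = 8.91e-06), with GF+SCFA minus GF 0.13 (95% interval -0.05 to 0.32). Genes of the receptors were lower too, Nr1i3 (CAR) at 62.99, 71.2 and 76.4 CPM in ConvD, 132, 115 and 116 CPM in GF+SCFA and 110.0, 91.3 and 118 CPM in GF livers (log2 difference -0.79, SE 0.10, adjusted p = 0.000278) and Nr1i2 (PXR) at 53.2, 60.2 and 64.8 CPM in ConvD, 94.02, 99.1 and 89.7 CPM in GF+SCFA and 68.2, 69.5 and 89.1 CPM in GF livers. For Nr1i2 the log2 difference was -0.67 (SE 0.10, adjusted p = 0.000988). Of 8 genes of the aryl hydrocarbon receptor pathway, Ahr itself (-0.84, adjusted p = 0.00322) and its partner Arnt (-0.45, adjusted p = 0.00805) were lower and none was higher. The median of these 8 genes was 0.145, and 5 of the differences were above 0. The number of CAR and PXR targets that were lower ranged from 5 without ConvD replicate 2 to 11 without ConvD replicate 3, and was 11 with DESeq2, beside 10 higher.

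Of 30 tested genes of the antioxidant factor NRF2 and of glutathione metabolism, 14 were higher in ConvD and 1 lower, with a median difference of 0.33. The higher count ranged from 10 without ConvD replicate 1 to 15 without GF replicate 3. Gsta1, described above, is on this list and on that of CAR and PXR targets. Against GF livers 12 were higher and 0 lower (median 0.46), and GF+SCFA minus GF had a median of 0.04 with no call. Gclc, the catalytic subunit that starts glutathione synthesis, stood at 191, 169 and 216 CPM in ConvD, 119, 112 and 102 CPM in GF+SCFA and 114, 132 and 112 CPM in GF livers. No ConvD liver overlapped another group. Gclc differed on the log2 scale by 0.79 (SE 0.10, adjusted p = 0.000169), with GF+SCFA minus GF -0.10 (95% interval -0.31 to 0.10). Gstm4, a glutathione transferase of a near-identical family, was at 86.2, 63.6 and 56.97 CPM in ConvD, 27.8, 30.4 and 26.9 CPM in GF+SCFA and 31.6, 30.7 and 29.3 CPM in GF livers. The fitted Gstm4 difference was 1.28 (SE 0.13, adjusted p = 0.00015). Ugdh, which makes UDP-glucuronate for conjugation, gave 197, 203 and 226 CPM in ConvD, 127, 138 and 118 CPM in GF+SCFA and 125, 141 and 120.5 CPM in GF livers. For Ugdh the log2 difference was 0.71 (SE 0.08, adjusted p = 0.00015). Srxn1, which repairs oxidised peroxiredoxins, was at 49.99, 42.3 and 42.5 CPM in ConvD, 30.4, 29.8 and 29.5 CPM in GF+SCFA and 28.2, 29 and 29.3 CPM in GF livers. Srxn1 differed on the log2 scale by 0.59 (SE 0.08, adjusted p = 0.000287). In these 3 genes the supplemented livers lay close to the GF livers, and ConvD lay above both. The gene of NRF2 itself, Nfe2l2, was higher in ConvD than in GF+SCFA (0.41, adjusted p = 0.0175), with GF+SCFA minus GF at -0.22 (95% interval -0.46 to 0.01). The call of Nfe2l2 (adjusted p = 0.0761, 3 fits) was lost without GF+SCFA replicate 3.

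Genes of the entry steps of bile acid synthesis were lower in ConvD. Of 21 tested genes 5 were lower in ConvD and 1 was higher, with a median difference of -0.07, so most members did not pass. Cyp7a1, the rate-limiting enzyme of the classical pathway, stood at 133, 92.8 and 148 CPM in ConvD, 308, 241 and 251 CPM in GF+SCFA and 435, 279.6 and 334 CPM in GF livers. Every ConvD liver was below every other, and the GF+SCFA and GF livers overlapped. The fitted Cyp7a1 difference was -1.102 (SE 0.22, adjusted p = 0.014), with GF+SCFA minus GF -0.39 (95% interval -0.90 to 0.12). Cyp2c70, which makes muricholic acids in mice, was at 415, 427 and 359 CPM in ConvD, 842, 673 and 1049 CPM in GF+SCFA and 776, 758 and 718 CPM in GF livers. For Cyp2c70 the log2 difference was -1.09 (SE 0.14, adjusted p = 0.000371). Cyp7b1 and Cyp27a1 of the alternative pathway were lower by smaller margins (-0.95, adjusted p = 0.0361, and -0.30, adjusted p = 0.00873), as was the reductase Akr1d1 (-0.43, adjusted p = 0.00299). Hsd3b7, the next enzyme after Cyp7a1, was higher at 452, 393 and 469.5 CPM in ConvD, 306, 313 and 263 CPM in GF+SCFA and 308, 351 and 278 CPM in GF livers. Hsd3b7 differed on the log2 scale by 0.57 (SE 0.10, adjusted p = 0.0017). Cyp8b1, which sets the share of cholic acid, gave 0.35 (adjusted p = 0.199) and the FXR target Nr0b2 -0.36 (adjusted p = 0.549). Of 17 transporters 1 was higher and 0 lower. It was Abcb11, the bile salt export pump, at 583, 491 and 569.6 CPM in ConvD, 384, 377 and 345 CPM in GF+SCFA and 419, 437 and 317 CPM in GF livers. The fitted Abcb11 difference was 0.57 (SE 0.11, adjusted p = 0.00405). The call of Cyp7b1 (adjusted p = 0.116, 5 fits) was lost without ConvD replicate 2.

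Some genes of glucose production and of the glucocorticoid response were lower in ConvD. Of 25 gluconeogenic genes 8 were lower and 1 higher (median -0.43). Pck1, cytosolic phosphoenolpyruvate carboxykinase, stood at 2082, 1921 and 2283 CPM in ConvD, 3386, 3879 and 3974 CPM in GF+SCFA and 3555, 4154 and 3886 CPM in GF livers. The GF+SCFA livers fell inside the GF range but for replicate 1 just under it, and no ConvD liver came near. For Pck1 the log2 difference was -0.84 (SE 0.10, adjusted p = 0.00015), with GF+SCFA minus GF -0.04 (95% interval -0.26 to 0.17). Foxo1, the insulin-restrained transcription factor that drives this programme, was at 26.2, 29.1 and 28.8 CPM in ConvD, 45.8, 49.1 and 48.3 CPM in GF+SCFA and 44.1, 43.7 and 52.7 CPM in GF livers. Foxo1 differed on the log2 scale by -0.77 (SE 0.09, adjusted p = 0.000101), with GF+SCFA minus GF 0.03 (95% interval -0.15 to 0.21). Tat, tyrosine aminotransferase, was at 1536, 1301 and 1557 CPM in ConvD, 2949, 3221 and 4238 CPM in GF+SCFA and 3095, 2699 and 3902 CPM in GF livers (log2 difference -1.24, SE 0.16, adjusted p = 0.000531), and Gpt2, an alanine aminotransferase, differed by -0.49 (adjusted p = 0.00124). The member that was higher was Pck2, the mitochondrial isoform, at 3.83, 3.52 and 3.83 CPM in ConvD, 2.098, 1.69 and 2.56 CPM in GF+SCFA and 2.34, 1.78 and 2.77 CPM in GF livers. The fitted Pck2 difference was 0.82 (SE 0.20, adjusted p = 0.0132). G6pc, the last step of glucose release, varied within groups and gave -0.70 (adjusted p = 0.285). Without GF+SCFA replicate 2, 5 gluconeogenic genes were lower, as also with library totals and upper-quartile factors. The call of Pck2 (adjusted p = 0.0655, 1 fit) was lost without GF+SCFA replicate 2.

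Of 23 glucocorticoid-responsive genes 9 were lower in ConvD and 1 was higher, with a median difference of -0.91 against 0.01 over all genes. The lower count ranged from 7 without ConvD replicate 2 to 13 without GF replicate 3, and was 12 with DESeq2 and with the replicate block. Pck1 and Tat are on this list as well. Tsc22d3, which encodes the glucocorticoid-induced leucine zipper, stood at 94.97, 102 and 135 CPM in ConvD, 225, 239 and 226 CPM in GF+SCFA and 186, 152 and 194 CPM in GF livers. The 3 groups were in the order ConvD, GF, GF+SCFA with no overlap. For Tsc22d3 the log2 difference was -1.05 (SE 0.13, adjusted p = 0.000413), with GF+SCFA minus GF 0.37 (95% interval 0.09 to 0.65). Fkbp5, a co-chaperone of the receptor, was at 29.1, 34.7 and 21.4 CPM in ConvD, 82.9, 82.2 and 87.3 CPM in GF+SCFA and 45.3, 52.8 and 82.4 CPM in GF livers. The GF+SCFA livers were tightly grouped at the level of the highest GF liver. Fkbp5 differed on the log2 scale by -1.57 (SE 0.26, adjusted p = 0.00771), with GF+SCFA minus GF 0.48 (95% interval -0.10 to 1.07). The member that was higher was Lcn2, a siderophore-binding protein also made by neutrophils (1.403, adjusted p = 0.00153). Of 24 brakes and mediators of growth signalling 4 were lower and 0 higher; beside Ddit4 and Eif4ebp3 these were Sesn2 (-0.80, adjusted p = 0.0106) and Igf1 (-0.31, adjusted p = 0.0291), and the count was 2 without GF+SCFA replicate 3. The call of Igf1 (adjusted p = 0.0989, 4 fits) was lost without GF+SCFA replicate 2. The call of Sesn2 (adjusted p = 0.0552, 2 fits) was lost without GF+SCFA replicate 3.

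Few of the genes that sense, carry and activate the supplied acids themselves differed between the groups. Of 29 such genes 20 had enough counts to be tested, and 2 were higher and 2 lower in ConvD (median -0.03), close to the background shares. Slc16a1, the monocarboxylate carrier MCT1, stood at 32.03, 32.03 and 25.4 CPM in ConvD, 22, 22.99 and 21.2 CPM in GF+SCFA and 22.8, 22.2 and 22.96 CPM in GF livers. The ConvD livers were above both germ-free groups, which overlapped. The fitted Slc16a1 difference was 0.43 (SE 0.09, adjusted p = 0.00641), with GF+SCFA minus GF -0.04 (95% interval -0.24 to 0.17). Acss2, cytosolic acetyl-CoA synthetase, was at 434, 371 and 259 CPM in ConvD, 210.2, 191 and 207 CPM in GF+SCFA and 186, 266 and 236 CPM in GF livers, with a wide spread among ConvD livers. For Acss2 the log2 difference was 0.81 (SE 0.19, adjusted p = 0.0248), with GF+SCFA minus GF -0.18 (95% interval -0.62 to 0.27). Acsm3, a medium- and short-chain acyl-CoA synthetase, was at 152, 152 and 152 CPM in ConvD, 199, 183 and 181 CPM in GF+SCFA and 170.2, 180.2 and 192 CPM in GF livers (log2 difference -0.31, SE 0.07, adjusted p = 0.00733), and Acot12, an acetyl-CoA hydrolase, at 121, 125 and 131 CPM in ConvD, 145, 162 and 163 CPM in GF+SCFA and 131, 151 and 169 CPM in GF livers. Acot12 differed on the log2 scale by -0.32 (SE 0.09, adjusted p = 0.0226). The 2 enzymes were lower in ConvD by small margins. The carrier Slc16a7 gave -0.21 (adjusted p = 0.302) and the butyrate-activating Acsm1 0.00 (adjusted p = 0.993). Of the receptors, Ffar2 had 0.0971, 0.0976 and 0.0531 CPM in the ConvD livers and was above 0 in 1 of the other 6, at 0.0497 CPM in GF+SCFA replicate 2, while Ffar3 and Olfr78 had no count in any liver. In liver as a whole these receptors were at or under the floor of 3 counts per library, and no comparison is made. The call of Acss2 (adjusted p = 0.0889, 6 fits) was lost without GF+SCFA replicate 2. The call of Acot12 (adjusted p = 0.0844, 4 fits) was lost without GF+SCFA replicate 3.

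Of 11 histone deacetylase genes 3 were higher in ConvD and 0 lower, namely Hdac11 at 52.6, 55.4 and 56.6 CPM in ConvD, 37.8, 37.3 and 31.5 CPM in GF+SCFA and 49.3, 47.4 and 42.4 CPM in GF livers (log2 difference 0.63, SE 0.09, adjusted p = 0.00033; GF+SCFA minus GF -0.38 (95% interval -0.56 to -0.20)), Hdac8 (0.69, adjusted p = 0.0462) and Hdac6 (0.27, adjusted p = 0.0425). For Hdac11 the groups ran from ConvD down through GF to GF+SCFA without overlap. A single deacetylase was higher without GF replicate 1, and also with DESeq2 and with the replicate block. Of 12 acetyltransferases 1 was lower, Myst3 (-0.29, adjusted p = 0.0188), and 0 higher. The call of Hdac6 (adjusted p = 0.141, 7 fits) was lost without GF+SCFA replicate 2. The call of Hdac8 (adjusted p = 0.187, 6 fits) was lost without ConvD replicate 2. The call of Myst3 (adjusted p = 0.0786, 4 fits) was lost without ConvD replicate 1.

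Genes of fatty acid synthesis and of lipid droplets were called in both directions, in shares not below that of all genes (18.4%). Of 29 genes of fatty acid synthesis and its regulators 4 were higher and 3 lower (24.1% called). Pnpla3, an SREBP1c target on lipid droplets, was at 3.01, 3.08 and 0.744 CPM in ConvD, 0.283, 0.298 and 0.218 CPM in GF+SCFA and 0.163, 0.198 and 0.329 CPM in GF livers, all ConvD livers being above the rest and replicate 3 well under the other two. The fitted Pnpla3 difference was 3.07 (SE 0.55, adjusted p = 0.00322). Pnpla3 passed the count filter only through the ConvD livers and could only be called higher, so the background share is no measure for its call. Gpam, the first acyltransferase of triglyceride synthesis, was at 336, 221 and 233 CPM in ConvD, 172, 169 and 166 CPM in GF+SCFA and 177, 197 and 197 CPM in GF livers (log2 difference 0.64, SE 0.14, adjusted p = 0.00883), and Dgat2, the last, was lower at 379, 372 and 411 CPM in ConvD, 530.4, 511 and 532 CPM in GF+SCFA and 519, 557 and 566 CPM in GF livers. For Dgat2 the log2 difference was -0.44 (SE 0.07, adjusted p = 0.00115). Acly, which makes cytosolic acetyl-CoA from citrate, was higher (0.72, adjusted p = 0.0222). Scd1, the stearoyl-CoA desaturase, did not pass, at 14850, 8455 and 3072 CPM in ConvD, 2010, 2489 and 2951 CPM in GF+SCFA and 2098, 3216 and 3819 CPM in GF livers (log2 difference 1.82, adjusted p = 0.0774). Its ConvD livers spread widely, and ConvD replicate 3 lay just above the GF+SCFA livers and inside the GF range. Fasn, fatty acid synthase, had the same order of ConvD livers, at 1126, 646 and 377 CPM in ConvD, 423, 329.5 and 245 CPM in GF+SCFA and 464, 406 and 345 CPM in GF livers (log2 difference 1.11, adjusted p = 0.123). The number of synthesis genes that were higher ranged from 2 without GF+SCFA replicate 1 to 12 without ConvD replicate 3, and was 7 with DESeq2. Of 20 lipid droplet genes 2 were higher, the coat proteins Plin2 (0.56, adjusted p = 0.00167) and Plin3 (0.62, adjusted p = 0.00564), and 2 lower, Mgll and Fitm2. The calls of Acly (adjusted p = 0.0759, 3 fits) and Mgll (adjusted p = 0.0895, 3 fits) were lost without GF+SCFA replicate 2. The call of Fitm2 (adjusted p = 0.0837, 3 fits) was lost without GF+SCFA replicate 3.

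Of 42 genes of fatty acid oxidation and the PPAR-alpha response 1 was higher and 6 were lower (median -0.15). Acot1, a long-chain acyl-CoA thioesterase in a near-identical family, stood at 14.7, 13.9 and 20.2 CPM in ConvD, 41.1, 45.1 and 41.2 CPM in GF+SCFA and 29.1, 21.5 and 33 CPM in GF livers, the groups not overlapping. Acot1 differed on the log2 scale by -1.39 (SE 0.17, adjusted p = 0.00076), with GF+SCFA minus GF 0.61 (95% interval 0.24 to 0.98). Acot3 (-1.63, adjusted p = 0.0165) and the lipase inhibitor Angptl4 (-0.59, adjusted p = 0.0174) were lower, and the peroxisomal enzyme Ehhadh was higher (0.28, adjusted p = 0.0302). Cpt1a (-0.30, adjusted p = 0.067) and Ppara (-0.06, adjusted p = 0.705) did not pass. The count of lower members ranged from 1 without GF+SCFA replicate 2 to 10 without ConvD replicate 3, and was 3 under both other scalings and 11 with DESeq2. The call of Acot3 (adjusted p = 0.0657, 3 fits) was lost without ConvD replicate 2. The call of Angptl4 (adjusted p = 0.0586, 3 fits) was lost without GF+SCFA replicate 3. The call of Ehhadh (adjusted p = 0.14, 3 fits) was lost without ConvD replicate 1.

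Of all the process lists, interferon-stimulated genes had the highest share of calls in 1 direction. Of 57 tested, 40 were higher in ConvD and 0 lower, beside a background of 9.44% higher. Their median difference was 0.64. Against GF livers 26 were higher (median 0.60), and GF+SCFA minus GF had a median of -0.10 with no call. Without GF+SCFA replicate 2, 26 were higher. Promoter sequence is shown for 3 called members because their windows hold GAAA, any 2 bases and GAAA again, the core of the interferon-stimulated response element, read on either strand. Of the 57 tested members 44 had a promoter in RefSeq (build GRCm38.p6, not the mm9 of the counts), and 21 of these held the motif, 15 of them among 32 called members, against 3.993% of 27025 genes and 3.443% of 32851 windows of the same length. Each line gives the 250 bases before the start site, 5′ to 3′ in the direction of the gene, with the motif or its reverse complement in capitals. The search ran from 250 bases before to 50 after the start. In the order of the lines, they come from chr19:34583279-34583528 on the plus strand, chr11:58214727-58214976 on the plus strand and chr11:48992247-48992496 on the minus strand.
Ifit3: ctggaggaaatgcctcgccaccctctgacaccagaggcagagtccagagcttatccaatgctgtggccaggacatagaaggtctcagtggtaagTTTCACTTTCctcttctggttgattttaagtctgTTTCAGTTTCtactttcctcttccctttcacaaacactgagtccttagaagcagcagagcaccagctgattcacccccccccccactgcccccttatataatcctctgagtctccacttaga
Irgm2: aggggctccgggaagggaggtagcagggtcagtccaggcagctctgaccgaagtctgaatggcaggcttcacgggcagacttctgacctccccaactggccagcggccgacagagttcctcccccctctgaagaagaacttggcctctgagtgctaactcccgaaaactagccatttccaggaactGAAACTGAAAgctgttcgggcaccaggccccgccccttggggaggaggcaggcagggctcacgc
Tgtp1: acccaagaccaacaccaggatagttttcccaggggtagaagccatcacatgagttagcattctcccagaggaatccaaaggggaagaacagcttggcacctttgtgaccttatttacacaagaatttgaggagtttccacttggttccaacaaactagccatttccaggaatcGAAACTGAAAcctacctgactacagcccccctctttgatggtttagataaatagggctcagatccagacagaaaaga
The motif was about as frequent among members that were not called. A match describes the letters only, and binding was not measured.

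Ifit3, an interferon-induced RNA-binding protein whose window holds 2 matches, stood at 19.9, 23.9 and 22.6 CPM in ConvD, 14.9, 10.8 and 14.2 CPM in GF+SCFA and 13.5, 13.4 and 12.3 CPM in GF livers. The ConvD livers were above both germ-free groups, which overlapped. The fitted Ifit3 difference was 0.74 (SE 0.12, adjusted p = 0.000943), with GF+SCFA minus GF 0.02 (95% interval -0.24 to 0.28). Irgm2, a GTPase that acts on pathogen vacuoles, was at 68.6, 138 and 96.3 CPM in ConvD, 32.1, 31.8 and 34.1 CPM in GF+SCFA and 48.1, 53.1 and 48.3 CPM in GF livers, with no overlap among the 3 groups and GF+SCFA lowest. For Irgm2 the log2 difference was 1.63 (SE 0.23, adjusted p = 0.00386), with GF+SCFA minus GF -0.61 (95% interval -1.16 to -0.07). Tgtp1, a related GTPase, was at 14.8, 47.99 and 41.3 CPM in ConvD, 8.05, 10.2 and 9.38 CPM in GF+SCFA and 13.3, 16.9 and 19.8 CPM in GF livers. Here ConvD replicate 1 lay within the GF range, below its group mates, and above the GF+SCFA livers. Tgtp1 differed on the log2 scale by 1.91 (SE 0.45, adjusted p = 0.0318). Irf9, a transcription factor of the pathway, was at 32.9, 40.1 and 32.3 CPM in ConvD, 22, 22.2 and 20.8 CPM in GF+SCFA and 26.8, 24.99 and 23.5 CPM in GF livers. The fitted Irf9 difference was 0.70 (SE 0.09, adjusted p = 0.000314). Isg15, a ubiquitin-like modifier, was at 9.17, 11.7 and 11.2 CPM in ConvD, 6.24, 5.86 and 5.78 CPM in GF+SCFA and 6.302, 6.38 and 6.34 CPM in GF livers. For Isg15 the log2 difference was 0.84 (SE 0.12, adjusted p = 0.000437), with GF+SCFA minus GF -0.09 (95% interval -0.36 to 0.18). In both genes every ConvD liver was above every germ-free liver. Across the 40 called members the difference ran from 0.21 (Trim25) to 1.91 (Tgtp1). The call of Trim25 (adjusted p = 0.158, 7 fits) was lost without GF+SCFA replicate 3. The call of Tgtp1 (adjusted p = 0.0981, 6 fits) was lost without GF+SCFA replicate 1.

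Of 27 antigen presentation genes 8 were higher in ConvD and 0 lower (median 0.38); Tap1, Psmb8 and Psmb9 are on both lists. Tap1, which carries peptides into the endoplasmic reticulum for class I molecules, stood at 29.8, 37.6 and 28.3 CPM in ConvD, 13.2, 14.2 and 13.5 CPM in GF+SCFA and 20.6, 22.2 and 16.2 CPM in GF livers. The groups did not overlap, and GF+SCFA was lowest. Tap1 differed on the log2 scale by 1.23 (SE 0.13, adjusted p = 8.53e-05), with GF+SCFA minus GF -0.53 (95% interval -0.81 to -0.25). Psmb9, an immunoproteasome subunit, was at 16.01, 19.2 and 20.9 CPM in ConvD, 9.87, 10.2 and 11.3 CPM in GF+SCFA and 10.2, 11.6 and 11.6 CPM in GF livers. The fitted Psmb9 difference was 0.84 (SE 0.11, adjusted p = 0.000303), with GF+SCFA minus GF -0.09 (95% interval -0.33 to 0.16). Nlrc5 (0.65, adjusted p = 0.00628) and Ciita (1.08, adjusted p = 0.0134), the transactivators of class I and class II genes, were higher, as was Tapbpl, a peptide editor (0.41, adjusted p = 0.0107). The class I genes B2m (0.14, adjusted p = 0.231) and H2-K1 (0.09, adjusted p = 0.462) did not pass. Without GF+SCFA replicate 2, 5 were higher, and with the replicate block 13. The calls of Psmb8 (adjusted p = 0.0929, 3 fits) and Ciita (adjusted p = 0.0674, 1 fit) were lost without GF+SCFA replicate 2. The call of Tapbpl (adjusted p = 0.0586, 1 fit) was lost without GF+SCFA replicate 3.

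Of 30 genes of bacterial sensing 5 were higher and 2 lower. Tlr6, among the higher ones, passed the count filter only through the ConvD livers and could only be called higher. Tlr3, a sensor of double-stranded RNA, stood at 7.18, 7.08 and 7.28 CPM in ConvD, 4.196, 4.52 and 3.22 CPM in GF+SCFA and 6.46, 5.05 and 4.27 CPM in GF livers (log2 difference 0.85, SE 0.17, adjusted p = 0.00367), Nod1, a sensor of peptidoglycan, at 11.4, 11.7 and 9.46 CPM in ConvD, 7.202, 7.95 and 7.63 CPM in GF+SCFA and 9.62, 7.77 and 6.995 CPM in GF livers (log2 difference 0.52, SE 0.13, adjusted p = 0.0155) and the flagellin receptor Tlr5 at 12.04, 12.5 and 9.83 CPM in ConvD, 8.68, 8.64 and 8.45 CPM in GF+SCFA and 7.17, 7.08 and 7.699 CPM in GF livers. For Tlr5 the log2 difference was 0.42 (SE 0.11, adjusted p = 0.0196). In each the ConvD livers were above the GF+SCFA livers, and for Nod1 GF replicate 1 lay above ConvD replicate 3. Nfkbia, the inhibitor of NF-kappa-B, was lower (-0.44, adjusted p = 0.0158). The count of higher members ranged from 1 without ConvD replicate 2 to 8 without ConvD replicate 3. Of 31 acute phase genes 4 were higher and 4 lower, among them Apcs, serum amyloid P (0.73, adjusted p = 0.000287), Crp, C-reactive protein (-0.53, adjusted p = 0.000937), and the interleukin-6 receptor Il6ra at 20.4, 26.6 and 32.6 CPM in ConvD, 60.6, 57.95 and 51.1 CPM in GF+SCFA and 60.2, 57.9 and 57.4 CPM in GF livers. Il6ra differed on the log2 scale by -1.09 (SE 0.14, adjusted p = 0.00051). The acute phase genes that were higher numbered 7 with library totals and with upper-quartile factors, and the lower ones 7 without GF replicate 3. Of 22 chemokine genes 2 were higher, among them Cxcl14 (1.61, adjusted p = 0.00482), and 1 lower, Cxcl12 (-0.27, adjusted p = 0.0184). The calls of Tlr5 (adjusted p = 0.0813, 5 fits) and Nod1 (adjusted p = 0.0589, 3 fits) were lost without ConvD replicate 2. The call of Cxcl12 (adjusted p = 0.0771, 4 fits) was lost without ConvD replicate 1. The call of Nfkbia (adjusted p = 0.0722, 2 fits) was lost without GF+SCFA replicate 2.

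Most tested markers of blood-borne myeloid cells were higher in ConvD. Of 12 tested monocyte and neutrophil markers, out of 18 measured, 8 were higher and 0 lower. Markers such as S100a8 passed the count filter only through the ConvD livers and could only be called higher. The background share of 9.44% is therefore no measure for this count. S100a8, an abundant neutrophil protein, stood at 2.48, 2.59 and 1.97 CPM in ConvD, 0.227, 0.0993 and 0.0545 CPM in GF+SCFA and 0.163, 0.198 and 0.282 CPM in GF livers, and every ConvD liver was far above the rest. The fitted S100a8 difference was 4.17 (SE 0.38, adjusted p = 2.1e-05). The granule genes Ngp and Ltf had no count in any GF+SCFA liver, and in ConvD livers 1.52 ± 0.66 and 1.01 ± 0.42 CPM (SD, n = 3), at least 9.45-fold and 6.27-fold higher than a floor of 3 counts per library (0.161 CPM). The summed TPM of the 18 measured markers was 64.24 to 92.14 in ConvD, 20.36 to 23.46 in GF+SCFA and 18.02 to 28.59 in GF livers. Of 17 macrophage markers 5 were higher, such as Mpeg1 (0.76, adjusted p = 0.000981) and Cd68 (0.55, adjusted p = 0.0094), with a range from 3 without GF+SCFA replicate 1 to 13 without ConvD replicate 1; library totals gave 9, upper-quartile factors and DESeq2 10, and the replicate block 11. Of 13 Kupffer cell markers 3 were higher and 1 lower, the higher count running from 1 without GF+SCFA replicate 2 to 6 with the replicate block, and their defining Clec4f did not pass (0.33, adjusted p = 0.0807). Of 5 B and plasma cell markers 3 were higher, Cd79a, Cd79b and Igj, the joining chain of secreted antibodies, at 3.74, 3.42 and 2.44 CPM in ConvD, 1.42, 0.695 and 0.709 CPM in GF+SCFA and 1.25, 0.594 and 0.751 CPM in GF livers. For Igj the log2 difference was 1.78 (SE 0.31, adjusted p = 0.0016). Summed TPM of all 11 B and plasma cell markers overlapped between groups, at 76.19 to 87.56 in ConvD, 77.3 to 84.64 in GF+SCFA and 69.38 to 92.79 in GF livers. The median difference of the tested B and plasma cell markers was 1.71, and -0.18 with a minimum count of 50. T and NK cell markers (0 of 8) and sinusoidal endothelial markers (0 of 14) gave no call. In whole liver, more cells of a type and more RNA per cell cannot be told apart. Summed TPM of blood markers was 1128, 4702 and 2889 in the ConvD livers and 654.8 to 1302 in the other 6. Of 8 blood markers tested 2 were higher, among them Bpgm, an enzyme of red cells (0.50, adjusted p = 0.00656), and 0 lower. All 8 differences were above 0 (median 1.68), and DESeq2 called 6 higher. Hba-a1, a hemoglobin gene, gave 1.66 (adjusted p = 0.104). The part of blood and immune cells in the interferon list was not tested. The call of Cd79b (adjusted p = 0.0781, 2 fits) was lost without ConvD replicate 1.

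**Figure D3:**
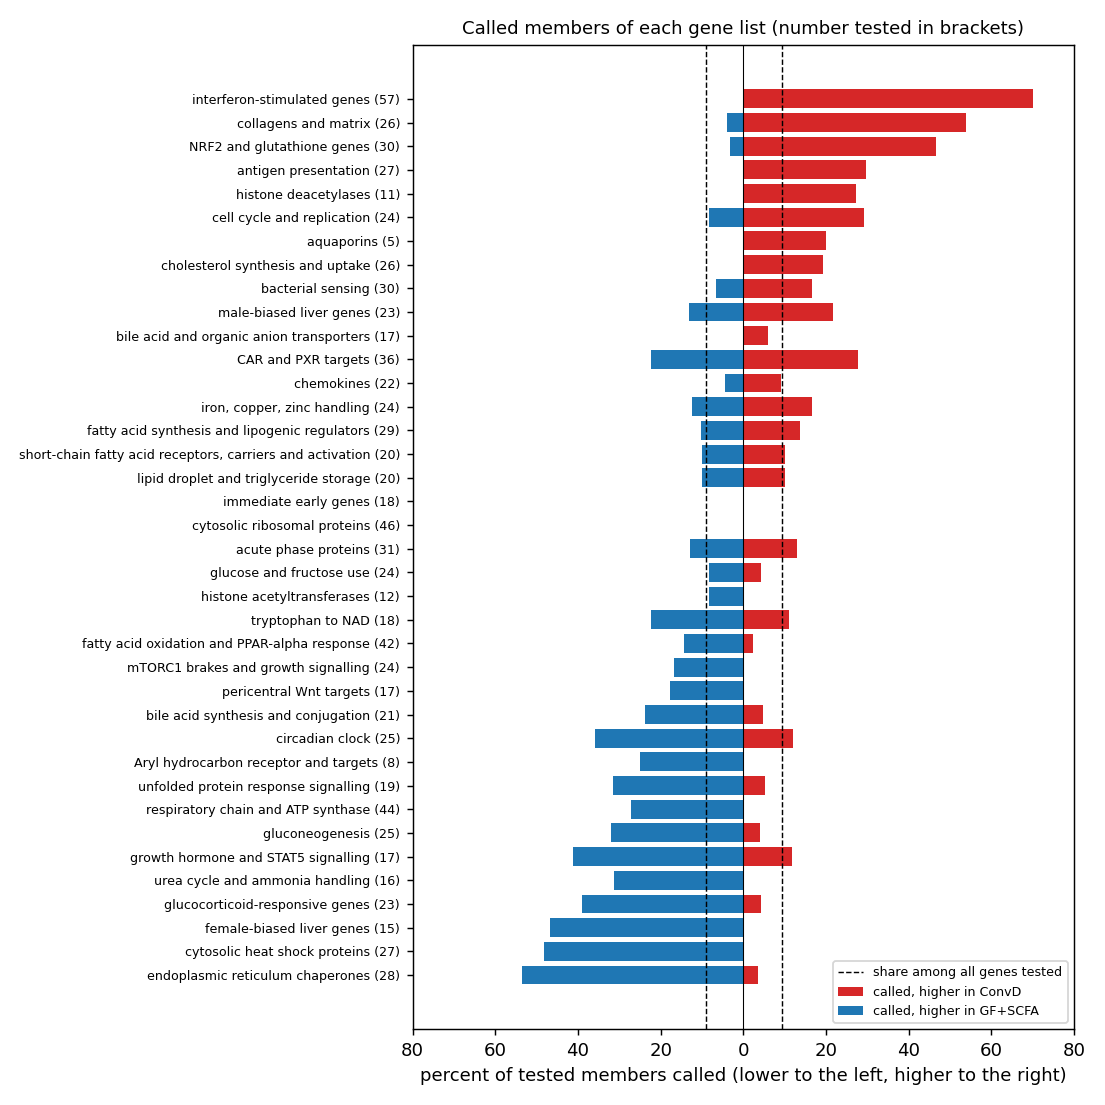
Percent of tested members of each gene list that passed the test, higher in ConvD to the right (red) and lower to the left (blue), with the share among all 12037 genes as dashed lines (9.44% and 8.97%). Interferon-stimulated genes (40 of 57) and collagens (14 of 26) lead on the right, endoplasmic reticulum chaperones (15 of 28) and heat shock proteins (13 of 27) on the left.

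Many chaperones of the endoplasmic reticulum were lower in ConvD. Of 28 tested 15 were lower and 1 was higher, Fkbp11, beside a background of 8.97% lower (median -0.35). Against GF livers 11 were lower (median -0.23), and GF+SCFA minus GF had a median of 0.13 with 1 call, Manf. The call of Fkbp11 (adjusted p = 0.112, 5 fits) was lost without GF+SCFA replicate 2. The windows of 3 called members are shown because they hold CCAAT, any 9 bases and CCACG, the endoplasmic reticulum stress response element, on either strand. Of 24 members with a promoter 9 held it, 5 of them among 13 called members, against 0.137% of 27025 genes and 0.119% of windows. In the order of the lines, the stretches are chr2:34771840-34772089 on the plus strand, chr15:88819396-88819645 on the plus strand and chr19:6046326-6046575 on the plus strand (RefSeq, GRCm38.p6), printed as above.
Hspa5: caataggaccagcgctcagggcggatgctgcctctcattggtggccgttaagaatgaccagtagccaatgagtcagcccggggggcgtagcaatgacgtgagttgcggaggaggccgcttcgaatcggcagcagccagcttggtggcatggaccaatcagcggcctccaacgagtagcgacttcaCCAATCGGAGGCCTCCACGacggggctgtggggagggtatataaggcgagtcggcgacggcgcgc
Creld2: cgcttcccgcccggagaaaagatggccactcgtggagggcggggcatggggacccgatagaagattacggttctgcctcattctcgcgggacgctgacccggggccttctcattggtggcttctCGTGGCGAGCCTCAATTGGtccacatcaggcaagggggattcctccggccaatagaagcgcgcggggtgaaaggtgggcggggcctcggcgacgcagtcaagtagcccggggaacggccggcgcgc
Syvn1: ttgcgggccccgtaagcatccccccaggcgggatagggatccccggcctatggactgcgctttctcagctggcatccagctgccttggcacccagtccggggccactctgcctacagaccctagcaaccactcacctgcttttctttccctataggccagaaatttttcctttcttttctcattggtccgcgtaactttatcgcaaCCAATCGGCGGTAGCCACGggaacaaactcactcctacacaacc
These are matches of letters, not measured sites. The element was about as frequent among chaperone genes that were not called.

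Hspa5, which encodes the chaperone BiP, stood at 463, 510.0 and 439.6 CPM in ConvD, 962, 998 and 822 CPM in GF+SCFA and 802, 687 and 655 CPM in GF livers. The groups did not overlap and were in the order ConvD, GF, GF+SCFA. Hspa5 differed on the log2 scale by -0.98 (SE 0.10, adjusted p = 5.18e-05), with ConvD minus GF -0.60 (95% interval -0.81 to -0.39) and GF+SCFA minus GF 0.38 (95% interval 0.16 to 0.59). Manf, a secreted stress protein that binds BiP, was at 34.5, 37.5 and 34.01 CPM in ConvD, 81.5, 82.4 and 75.3 CPM in GF+SCFA and 60.7, 48.5 and 44.97 CPM in GF livers in the same order. The fitted Manf difference was -1.17 (SE 0.10, adjusted p = 1.36e-05), with ConvD minus GF -0.54 (95% interval -0.75 to -0.33) and GF+SCFA minus GF 0.63 (95% interval 0.43 to 0.84). For Manf the difference of the supplemented livers from GF passed too (adjusted p = 0.0397). Creld2, a disulfide isomerase, gave 13.1, 16.4 and 16 CPM in ConvD, 37.8, 43.3 and 30.1 CPM in GF+SCFA and 30.2, 20.6 and 19.3 CPM in GF livers; here 1 GF liver overlapped the GF+SCFA range. For Creld2 the log2 difference was -1.29 (SE 0.19, adjusted p = 0.0026), with GF+SCFA minus GF 0.67 (95% interval 0.24 to 1.096). Syvn1, the ubiquitin ligase of the degradation pathway, was at 32.95, 36.8 and 21.8 CPM in ConvD, 69.4, 90.6 and 65.9 CPM in GF+SCFA and 66.9, 54.04 and 47.4 CPM in GF livers (log2 difference -1.302, SE 0.23, adjusted p = 0.00844), Herpud1 of that pathway at 324, 376 and 399.6 CPM in ConvD, 630.1, 756 and 595 CPM in GF+SCFA and 523, 552 and 533 CPM in GF livers (log2 difference -0.85, SE 0.10, adjusted p = 0.000127), and Edem1, which hands misfolded glycoproteins to it, at 133, 123 and 135 CPM in ConvD, 190.0, 205 and 211 CPM in GF+SCFA and 189, 158 and 177 CPM in GF livers. Edem1 differed on the log2 scale by -0.64 (SE 0.08, adjusted p = 0.000201). In all 3 the ConvD livers were lowest. Of 19 signalling genes of the unfolded protein response 6 were lower, including the sensors Atf6 at 76.9, 71.2 and 75.6 CPM in ConvD, 102, 102 and 96.4 CPM in GF+SCFA and 92.8, 98.6 and 99.4 CPM in GF livers (log2 difference -0.42, SE 0.06, adjusted p = 0.000678), Atf6b (-0.46, adjusted p = 0.00583) and Eif2ak3, or PERK (-0.90, adjusted p = 0.00708). 1 was higher, Trib3. Xbp1 (0.14, adjusted p = 0.694) and Ddit3 (-0.43, adjusted p = 0.154) did not pass, and without GF+SCFA replicate 2 the signalling genes that were lower numbered 3. The call of Trib3 (adjusted p = 0.0729, 2 fits) was lost without GF+SCFA replicate 3.

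Cytosolic heat shock proteins were lower in part, 13 of 27 with 0 higher (median -0.48). The lower count ranged from 9 without ConvD replicate 1 to 14 without GF replicate 1. It was 10 with library totals, 11 with upper-quartile factors and 15 with DESeq2. Against GF livers 11 were lower (median -0.43), and GF+SCFA minus GF had a median of 0.01. Hspa8, the constitutive HSP70, stood at 821, 941 and 744 CPM in ConvD, 1345, 1633 and 1337 CPM in GF+SCFA and 1547, 1371 and 1369 CPM in GF livers. The 2 germ-free groups overlapped, and the ConvD livers were below both. The fitted Hspa8 difference was -0.79 (SE 0.11, adjusted p = 0.000314), with GF+SCFA minus GF 0.01 (95% interval -0.22 to 0.23). Hsph1, its nucleotide exchange factor, was at 19.8, 22.02 and 15.8 CPM in ConvD, 56.6, 98.1 and 58.01 CPM in GF+SCFA and 100.0, 69.5 and 46.4 CPM in GF livers. For Hsph1 the log2 difference was -1.88 (SE 0.37, adjusted p = 0.0167). Dnaja1 (-0.63, adjusted p = 0.000536), Stip1 (-0.60, adjusted p = 0.00075) and Fkbp4 (-0.48, adjusted p = 0.00283), co-chaperones of HSP70 and HSP90, were lower. The inducible Hspa1b did not pass at 6.75, 8.69 and 9.46 CPM in ConvD, 12.8, 71.4 and 19.5 CPM in GF+SCFA and 61.5, 41.2 and 18.4 CPM in GF livers (log2 difference -2.07, adjusted p = 0.133). The heat shock element (GAA, TTC and GAA, each 2 bases apart, on either strand) was in 4 of 21 members' windows, against 0.662% of genes. Immediate early genes, which respond quickly to stress, gave 0 calls of 18 (median -0.43; 0 to 2 lower without 1 liver, 1 lower with DESeq2). The call of Hsph1 (adjusted p = 0.0583, 3 fits) was lost without ConvD replicate 1.

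**Figure D4:**
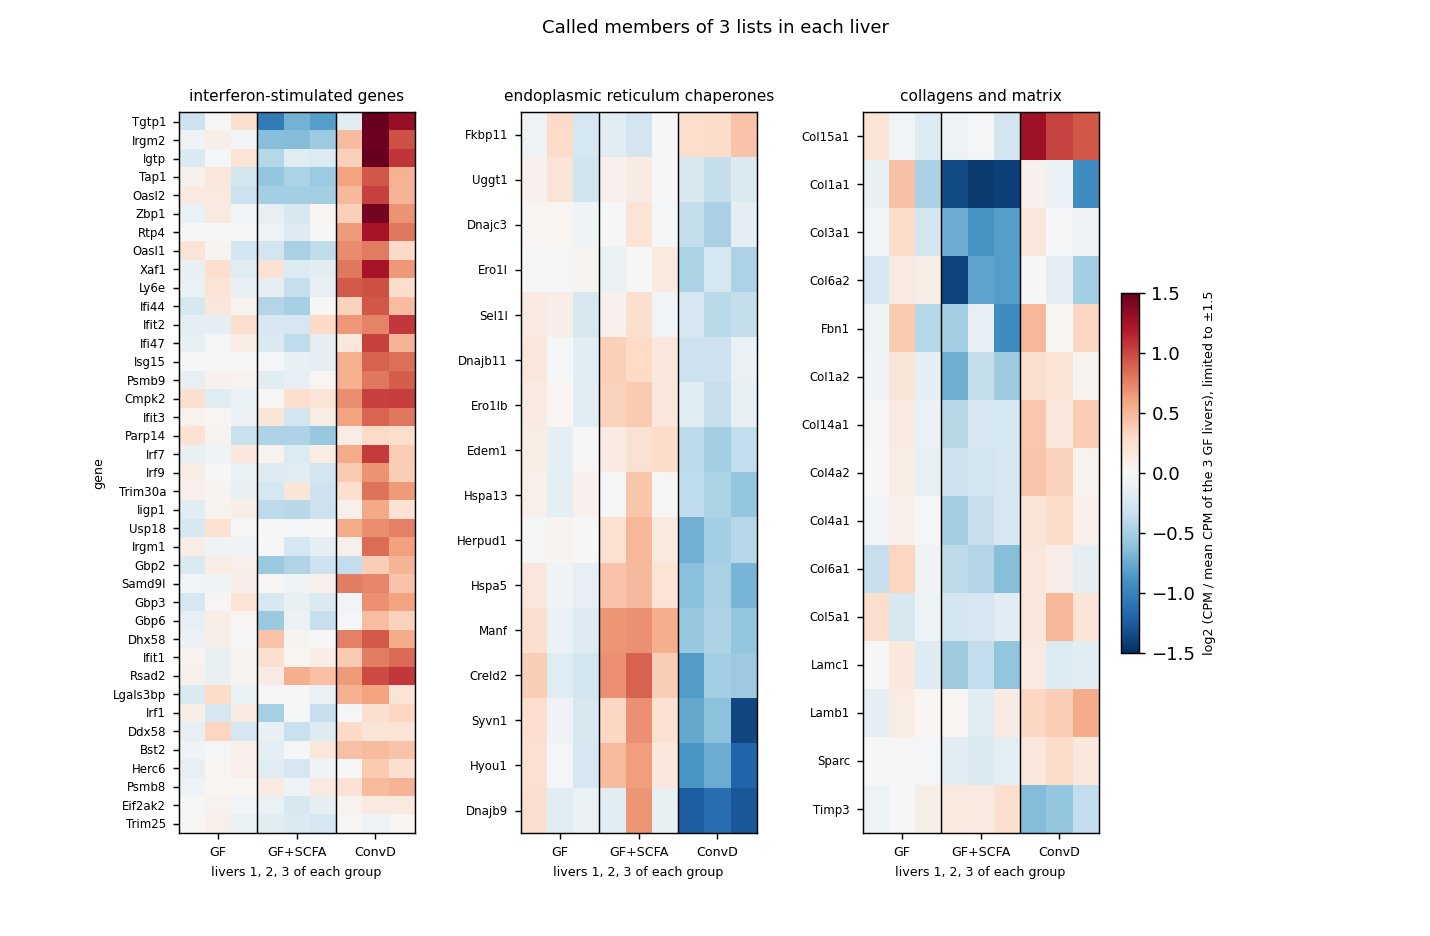
Colour gives log2 of CPM over the mean of the 3 GF livers for the called members reported here (rows) of 3 lists in each of the 9 livers (columns), limited to 1.5 in either direction. Interferon-stimulated genes are high in the ConvD livers, endoplasmic reticulum chaperones are low in ConvD and mostly above GF in GF+SCFA, and most called collagens have lower values in GF+SCFA than in ConvD.

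Genes of the circadian clock differed on both arms. Of 25 tested 9 were lower in ConvD and 3 higher, or 1 without ConvD replicate 1. Cry1, a repressor, stood at 2.43, 3.47 and 3.83 CPM in ConvD, 10.5, 12.8 and 12.2 CPM in GF+SCFA and 10.3, 7.57 and 9.202 CPM in GF livers, with the groups in the order ConvD, GF, GF+SCFA. Cry1 differed on the log2 scale by -1.87 (SE 0.17, adjusted p = 1.91e-05), with GF+SCFA minus GF 0.39 (95% interval 0.07 to 0.71). Arntl, or BMAL1, the core activator, was low in every liver, at 1.02, 0.977 and 1.01 CPM in ConvD, 1.701, 1.99 and 1.91 CPM in GF+SCFA and 0.706, 0.594 and 0.845 CPM in GF livers. The GF+SCFA livers were above ConvD, and ConvD above GF, without overlap. The fitted Arntl difference was -0.90 (SE 0.22, adjusted p = 0.0135), with ConvD minus GF 0.48 (95% interval -0.07 to 1.03) and GF+SCFA minus GF 1.37 (95% interval 0.87 to 1.88), adjusted p = 0.0646. Nr1d1, or REV-ERB-alpha, the repressor of Arntl, was higher in ConvD at 61.05, 54.6 and 47.7 CPM in ConvD, 20.9, 27.9 and 14.2 CPM in GF+SCFA and 29.3, 32.3 and 18.03 CPM in GF livers (log2 difference 1.37, SE 0.30, adjusted p = 0.0216), as were its fellow output Dbp (0.85, adjusted p = 0.0163) and the repressor Bhlhe41 (1.76, adjusted p = 0.00606). Per2 at 23.9, 23.4 and 22.4 CPM in ConvD, 38.8, 42.6 and 32.8 CPM in GF+SCFA and 46.8, 40.9 and 36.8 CPM in GF livers (log2 difference -0.71, SE 0.10, adjusted p = 0.000576) and the deadenylase Ccrn4l (-1.32, adjusted p = 0.000498) were lower. Clock itself gave 0.00 (adjusted p = 0.982). The hour of dissection is not in the labels, and its part in these differences was not tested. The E-box CACGTG, the site of the BMAL1 partners, was in 5 of 20 members' windows, against 8.093% of genes. The call of Dbp (adjusted p = 0.058, 4 fits) was lost without GF+SCFA replicate 3. The call of Nr1d1 (adjusted p = 0.0693, 3 fits) was lost without GF+SCFA replicate 1. The call of Arntl (adjusted p = 0.0557, 1 fit) was lost without GF+SCFA replicate 2.

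Of 26 collagen and matrix genes 14 were higher in ConvD than in GF+SCFA and 1 was lower (median 0.47). Against GF livers 3 were higher (median 0.12), and GF+SCFA minus GF had a median of -0.25 with 1 call, Col3a1. Col3a1, a fibrillar collagen, stood at 28.97, 25.6 and 24.9 CPM in ConvD, 15.4, 14 and 14.6 CPM in GF+SCFA and 25.1, 31.2 and 21.3 CPM in GF livers. The ConvD and GF livers overlapped, and the GF+SCFA livers were below both. For Col3a1 the log2 difference was 0.85 (SE 0.12, adjusted p = 0.000531), with ConvD minus GF 0.04 (95% interval -0.22 to 0.29) and GF+SCFA minus GF -0.82 (95% interval -1.08 to -0.55), adjusted p = 0.0397. Col1a1 was at 3.93, 3.52 and 1.97 CPM in ConvD, 1.47, 1.39 and 1.42 CPM in GF+SCFA and 3.48, 5.097 and 2.68 CPM in GF livers, in the same arrangement. Col1a1 differed on the log2 scale by 1.14 (SE 0.30, adjusted p = 0.0188), with ConvD minus GF -0.25 (95% interval -0.81 to 0.31) and GF+SCFA minus GF -1.39 (95% interval -2.02 to -0.76), adjusted p = 0.13. Col4a1 of basement membranes (0.56, adjusted p = 0.000981) and Col14a1 (0.64, adjusted p = 0.000314) were higher as well, with the GF mean between the other two. Col15a1 differed from this, at 6.36, 5.32 and 5.05 CPM in ConvD, 2.495, 2.58 and 2.18 CPM in GF+SCFA and 3.04, 2.57 and 2.3 CPM in GF livers, with ConvD above both germ-free groups. The fitted Col15a1 difference was 1.203 (SE 0.17, adjusted p = 0.000379). Timp3, an inhibitor of matrix proteases, was the member that was lower (-0.71, adjusted p = 0.000153). Of 15 stellate cell and fibroblast markers 7 were higher, 3 of them collagens, and without GF+SCFA replicate 1 the 7 fell to 4. Summed TPM of the 15 markers was 286.2 to 333.5 in ConvD, 236.3 to 262.6 in GF+SCFA and 244.2 to 328.6 in GF livers. Spp1, osteopontin, of bile duct cells and macrophages, stood at 57.1, 51.2 and 36.8 CPM in ConvD, 25.97, 24.2 and 21.9 CPM in GF+SCFA and 42.6, 43 and 36.95 CPM in GF livers. For Spp1 the log2 difference was 1.01 (SE 0.14, adjusted p = 0.0012), with GF+SCFA minus GF -0.77 (95% interval -1.08 to -0.45). Summed TPM of cholangiocyte markers, Spp1 included, was 50.21 to 84.05 in ConvD, 31.85 to 36.04 in GF+SCFA and 55.2 to 58.26 in GF livers. The part of these cell types in the collagen result was not tested. The number of matrix genes that were higher was 7 without GF+SCFA replicate 1. The call of Col1a1 (adjusted p = 0.0766, 5 fits) was lost without ConvD replicate 1.

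Of 26 genes of cholesterol synthesis and uptake 5 were higher in ConvD and 0 lower, with a median of 0.20 against GF+SCFA and of -0.04 against GF. Sc5d, a late enzyme of synthesis, stood at 727, 622 and 606 CPM in ConvD, 407, 393 and 389 CPM in GF+SCFA and 417, 489 and 438 CPM in GF livers, with ConvD above the rest. Sc5d differed on the log2 scale by 0.72 (SE 0.09, adjusted p = 0.000163). Mvd, mevalonate diphosphate decarboxylase, was at 22.2, 20.99 and 19.3 CPM in ConvD, 15.7, 12.9 and 9.81 CPM in GF+SCFA and 19.7, 19.7 and 15.9 CPM in GF livers. The fitted Mvd difference was 0.71 (SE 0.14, adjusted p = 0.00574), with GF+SCFA minus GF -0.53 (95% interval -0.84 to -0.21). Stard4, a cytosolic carrier of cholesterol, was at 100.5, 109 and 98.5 CPM in ConvD, 83.4, 73.4 and 82.8 CPM in GF+SCFA and 94.8, 111 and 105 CPM in GF livers. For Stard4 the log2 difference was 0.36 (SE 0.08, adjusted p = 0.0063), with ConvD minus GF -0.01 (95% interval -0.18 to 0.15) and GF+SCFA minus GF -0.38 (95% interval -0.54 to -0.21). For Stard4 the GF+SCFA livers lay below both other groups, which overlapped. Scap, the escort of SREBP, gave 0.39 (adjusted p = 0.00666). Library totals and DESeq2 gave 8 higher members, upper-quartile factors 7, and the count ranged from 4 without GF+SCFA replicate 2 to 8 without GF replicate 1.

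Of 44 nuclear genes of the respiratory chain and ATP synthase 12 were lower in ConvD and 0 higher, all by less than 0.4 (median -0.17). Against GF livers no member passed (median -0.05). Cox6a1, a subunit of cytochrome oxidase, stood at 135, 137 and 144 CPM in ConvD, 169, 167 and 165 CPM in GF+SCFA and 136, 145 and 144 CPM in GF livers. The GF+SCFA livers were above both other groups, which overlapped. Cox6a1 differed on the log2 scale by -0.27 (SE 0.06, adjusted p = 0.0097), with ConvD minus GF -0.03 (95% interval -0.16 to 0.10) and GF+SCFA minus GF 0.24 (95% interval 0.10 to 0.37). Cox5b was at 108, 108 and 103 CPM in ConvD, 129, 126 and 141 CPM in GF+SCFA and 112, 116 and 114 CPM in GF livers (log2 difference -0.31, SE 0.07, adjusted p = 0.0051), Cox5a at 101, 98.04 and 117 CPM in ConvD, 132, 124 and 149.5 CPM in GF+SCFA and 120.4, 106 and 112 CPM in GF livers (log2 difference -0.36, SE 0.09, adjusted p = 0.0133) and Ndufv2 of complex I at 70.2, 71.6 and 71.8 CPM in ConvD, 84.8, 80.4 and 94.5 CPM in GF+SCFA and 76.01, 74.97 and 78.9 CPM in GF livers. The fitted Ndufv2 difference was -0.28 (SE 0.07, adjusted p = 0.0127). This count depended on the scaling, being 2 with library totals and 5 with upper-quartile factors, and it was 2 without GF+SCFA replicate 3. Cytosolic ribosomal protein genes gave 0 calls of 46 in either direction (0 with DESeq2; median -0.01). The calls of Cox5a (adjusted p = 0.0687, 3 fits) and Ndufv2 (adjusted p = 0.0672, 1 fit) were lost without GF+SCFA replicate 3.

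**Figure D5:**
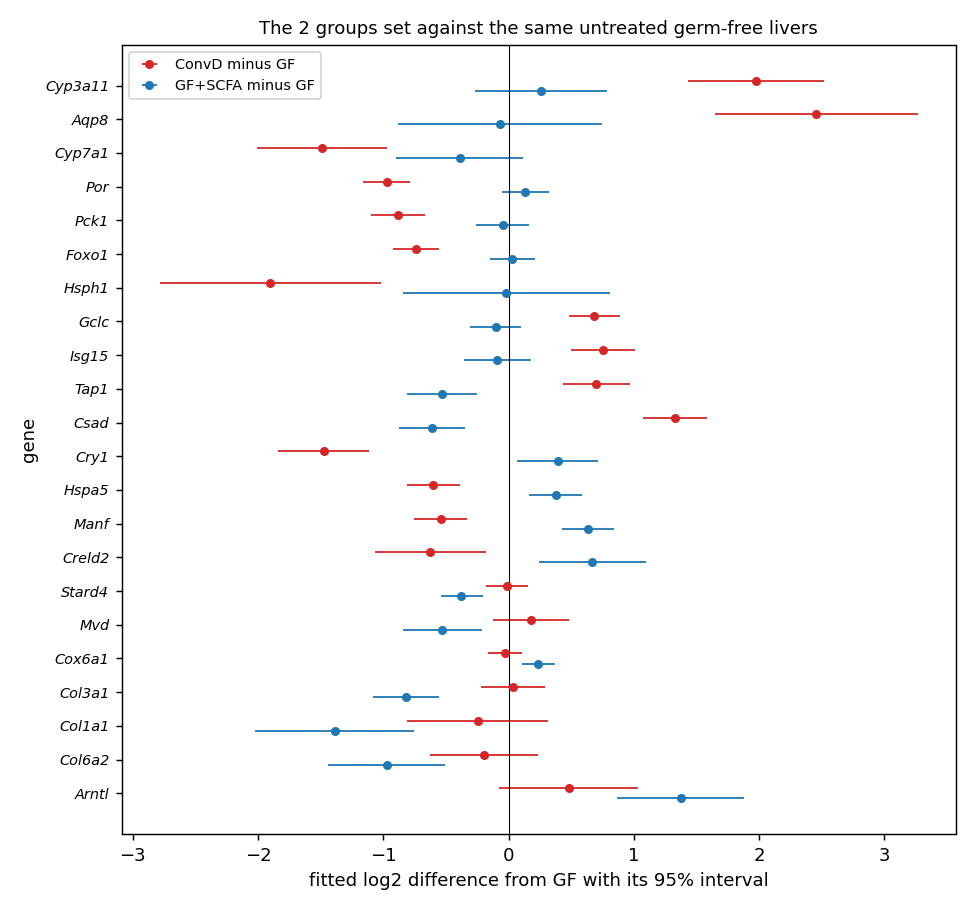
Fitted log2 difference from the same 3 GF livers, with its unadjusted 95% interval, for ConvD (red) and GF+SCFA (blue) in 22 named genes. For Cyp3a11 to Isg15 the red values lie away from 0 and the blue intervals include it; for Cry1, Hspa5, Manf and Creld2 the 2 lie on opposite sides; for Stard4 to Col6a2 the blue values lie away from 0 and the red intervals include it.

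Sex-biased genes and growth hormone signalling differed in these male mice. Of 15 tested female-biased genes 7 were lower in ConvD and 0 higher (median -0.88), a count of 4 without ConvD replicate 2. Lifr, the receptor of leukemia inhibitory factor, stood at 241, 263 and 272 CPM in ConvD, 411, 399 and 403 CPM in GF+SCFA and 429, 489 and 359 CPM in GF livers (log2 difference -0.65, SE 0.10, adjusted p = 0.000665) and Prlr, the prolactin receptor, at 32.5, 35.7 and 42.99 CPM in ConvD, 49.96, 52.4 and 49.9 CPM in GF+SCFA and 48.1, 47.8 and 53 CPM in GF livers. For Prlr the log2 difference was -0.46 (SE 0.09, adjusted p = 0.00467). In both the ConvD livers were below all others and the germ-free groups overlapped. Sult1e1, estrogen sulfotransferase, was at 0.0485, 0.146 and 0 CPM in ConvD, 0.567, 0.894 and 0.927 CPM in GF+SCFA and 0.435, 0.247 and 1.17 CPM in GF livers, at or under the floor of 3 counts in every ConvD library. Sult1e1 differed on the log2 scale by -3.46 (SE 0.78, adjusted p = 0.00843). Sult1e1 passed the count filter through the GF+SCFA livers, not through ConvD, and could only be called lower. The background share is therefore no measure for its call, which also counts in the glucocorticoid list. Of 23 male-biased genes 5 were higher and 3 lower. Mup20, a pheromone carrier in a near-identical family, was at 10200, 10390 and 9527 CPM in ConvD, 4979, 3989 and 4547 CPM in GF+SCFA and 4754, 7904 and 4957 CPM in GF livers (log2 difference 1.16, SE 0.17, adjusted p = 0.00145), Ces2e, a carboxylesterase, at 255, 239 and 214 CPM in ConvD, 129, 151 and 128 CPM in GF+SCFA and 125, 148 and 122 CPM in GF livers (log2 difference 0.79, SE 0.10, adjusted p = 0.000153), and Selenbp2 at 696, 905 and 1121 CPM in ConvD, 2167, 1910 and 2259 CPM in GF+SCFA and 2341, 2108 and 1360 CPM in GF livers, lower in ConvD. The fitted Selenbp2 difference was -1.22 (SE 0.23, adjusted p = 0.00978). Ugt2b1 was lower too (-0.35, adjusted p = 0.0158), and the number of male-biased genes that were higher was 2 without ConvD replicate 2. Of 17 genes of growth hormone and STAT5 signalling 2 were higher, Cish and Igfbp3 (0.95, adjusted p = 0.000213), and 7 lower, with Trim24 (-0.64, adjusted p = 0.00741) and the receptors Egfr at 492, 464 and 268 CPM in ConvD, 773, 819 and 824 CPM in GF+SCFA and 505, 519 and 547 CPM in GF livers (log2 difference -0.98, SE 0.20, adjusted p = 0.0113) and Esr1 (-0.91, adjusted p = 0.0156) among them. Lifr and Prlr are on both the growth hormone and the female-biased list and count as lower in each. The call of Ugt2b1 (adjusted p = 0.0763, 4 fits) was lost without GF+SCFA replicate 2.

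Hepatocyte identity was checked with 19 markers, all measured, whose summed TPM was 125200 to 155200 over the 9 livers. Alb differed by 0.10 (adjusted p = 0.645). 6 markers were lower in ConvD and 1 higher, Ttr, the thyroxine carrier (0.30, adjusted p = 0.0241). Cps1 and Ass1, among the lower ones, belong to the urea cycle, where 5 of 16 genes were lower and 0 higher. Asl, argininosuccinate lyase, stood at 356, 318 and 381 CPM in ConvD, 561, 648 and 713 CPM in GF+SCFA and 482, 453 and 643 CPM in GF livers (log2 difference -0.86, SE 0.13, adjusted p = 0.00155), Cps1, the entry enzyme, at 3739, 2960 and 3564 CPM in ConvD, 4519, 4709 and 4975 CPM in GF+SCFA and 5066, 6336 and 4945 CPM in GF livers (log2 difference -0.47, SE 0.12, adjusted p = 0.0126), and Ass1 and the proline oxidase Prodh gave -0.36 (adjusted p = 0.0244) and -0.39 (adjusted p = 0.00387). ConvD livers were below the GF+SCFA livers in each. The number of urea cycle genes that were lower was 2 without GF+SCFA replicate 3 and 3 with library totals, and that of hepatocyte markers 3 without GF+SCFA replicate 3. Of 7 fat markers 4 (Adipoq, Retn, Lep and Plin1) had no count in any liver. The same held for 6 of 10 pancreas markers, among them Prss1, Cela3b, Pnlip and Amy2a5, and 4 of 8 gut markers (Muc2, Reg3g, Reg3b and Cdx2). Other members had counts, and summed TPM over the 9 livers was 2127 to 3249 for fat, 24.61 to 37.95 for pancreas and 153.7 to 263.8 for gut. Of 2 tested pancreas markers 1 was lower in ConvD. The calls of Ttr (adjusted p = 0.0998, 5 fits) and Ass1 (adjusted p = 0.12, 3 fits) were lost without GF+SCFA replicate 3. The call of Cps1 (adjusted p = 0.0626, 2 fits) was lost without ConvD replicate 2.

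The remaining lists are given by their counts, beside backgrounds of 9.44% higher and 8.97% lower. Of 18 genes from tryptophan to NAD 2 were higher, Nmnat3 (0.81, adjusted p = 0.00224) and Aox1 (0.60, adjusted p = 0.0148), and 4 lower, including BC016495 (-0.34, adjusted p = 0.016) and Afmid (-0.25, adjusted p = 0.0232); the lower count was 1 without GF+SCFA replicate 3, 1 with library totals and 2 with upper-quartile factors. Of 24 metal handling genes 4 were higher and 3 lower, the lower count ranging from 1 without ConvD replicate 1 to 5 without GF replicate 3. Slc40a1, the iron exporter of Kupffer cells and hepatocytes, stood at 153, 155 and 165 CPM in ConvD, 115, 114 and 116 CPM in GF+SCFA and 98.8, 93.6 and 113 CPM in GF livers (log2 difference 0.46, SE 0.07, adjusted p = 0.0011), the manganese exporter Slc30a10 at 21.8, 20.2 and 21.9 CPM in ConvD, 15.2, 12.3 and 11.4 CPM in GF+SCFA and 11.9, 9.699 and 9.81 CPM in GF livers (log2 difference 0.72, SE 0.12, adjusted p = 0.00105), and the transferrin receptor Tfrc at 16.8, 26.2 and 14.9 CPM in ConvD, 55.2, 54.3 and 42.7 CPM in GF+SCFA and 43.3, 32.8 and 55.7 CPM in GF livers. For Tfrc the log2 difference was -1.39 (SE 0.27, adjusted p = 0.0146). The exporters were higher and the receptor lower in ConvD, and the ferritin gene Fth1 gave -0.35 (adjusted p = 0.00482; GF+SCFA minus GF 0.28 (95% interval 0.12 to 0.43)). Slc39a8, a zinc and manganese importer, was higher (0.39, adjusted p = 0.0052) and the hormone gene Hamp did not pass (0.03, adjusted p = 0.938). Of 24 cell cycle genes 7 were higher, such as Mki67 (1.26, adjusted p = 0.00804), Cdc20 (2.44, adjusted p = 0.00302) and Mcm3 (0.75, adjusted p = 0.00987), and 2 lower, among them Tk1 (-0.39, adjusted p = 0.00628); the higher count was 3 without GF+SCFA replicate 2. Of 24 genes of glucose and fructose use 1 was higher, the fructose carrier Slc2a5 (0.62, adjusted p = 0.0148), and 2 lower, Pfkfb1 (-0.97, adjusted p = 0.00132) and Ppp1r3b, a glycogen-targeting phosphatase subunit (-1.13, adjusted p = 0.0173; GF+SCFA minus GF 0.77 (95% interval 0.21 to 1.31)). Of 17 pericentral genes 3 were lower, Cyp2e1 (-0.38, adjusted p = 0.0172), Slc1a2 (-0.47, adjusted p = 0.0034) and Cyp27a1, and none was higher. The calls of Cyp2e1 (adjusted p = 0.074, 4 fits), BC016495 (adjusted p = 0.0667, 3 fits), Slc2a5 (adjusted p = 0.0613, 3 fits), Aox1 (adjusted p = 0.0539, 1 fit) and Tfrc (adjusted p = 0.054, 1 fit) were lost without ConvD replicate 1. The call of Afmid (adjusted p = 0.105, 3 fits) was lost without GF+SCFA replicate 3. The call of Ppp1r3b (adjusted p = 0.0581, 3 fits) was lost without ConvD replicate 3.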

How the data were processed

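RNA of 9 livers was extracted with Qiagen columns and made into Illumina TruSeq Stranded mRNA libraries, per the labels' protocols. Reads were handled with Bowtie2 and RSEM 1.2.23 on build mm9, per the submitters' processing notes. Whether counting used strand is not given in the sources used here; overlapping antisense genes may share reads. The authors deposited expected counts, estimated counts of reads per gene that are not normalised, for 20325 gene rows; 35.363% of those above 0 were not whole (beyond 0.05), and members of near-identical families are uncertain. The deposited TPM, normalised by the authors for length and depth per the file headers, served for summed markers only.

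Expected counts were rounded and fitted in edgeR 4.0.16 (R 4.3.3): filterByExpr with a minimum count of 10, TMM factors (0.935 to 1.06), 1 mean per group over all 9 livers, robust quasi-likelihood dispersions with 6 residual degrees of freedom, and Benjamini-Hochberg adjustment over 12037 genes. The common biological coefficient of variation was 10.55%. An SE is the size of the log2 difference over the square root of F. Of 1181 list entries 1176 were found in the files, through RefSeq names (GRCm38.p6) where a symbol had changed. The 38 process and 15 marker lists, the comparison and the rule for named genes were chosen with earlier results of these data known. Named genes are the 10 largest calls in each direction with no overlap and a mean count of at least 50, up to 4 called members per list by smallest adjusted p, any short-chain fatty acid gene, and further members where their list is described. On simulated counts (11943 genes), 50% of 1.5-fold and 76% of 2-fold changes were recovered, and 3 unchanged genes were called. Alternatives were other scalings, other filters, 6 livers only, a replicate block, DESeq2 1.42.0, and leaving out each liver.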

Additional observations from a re-analysis of the deposited data

How the results depend on the processing

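None of the 135 named genes changed the sign of its difference under the settings run. The balance of calls turned with DESeq2, from 1136 higher and 1080 lower to 959 and 1068, and that of CAR and PXR targets from 10 and 8 to 10 and 11. Library totals gave 586 genes lower in ConvD in place of 1080, and a minimum count of 50 gave 184 calls of at least 2-fold in place of 287; that filter tests fewer genes (10076), and for the scaling the cause was not tested. Leaving out 1 liver gave 1383 to 2393 calls, 705 to 1243 higher, 677 to 1150 lower and 228 to 346 of at least 2-fold. Called genes numbered 1383 without GF+SCFA replicate 2, 1400 without GF+SCFA replicate 3 and 1465 without ConvD replicate 2, and the lower ones 677 without ConvD replicate 1; in each, 1 group holds fewer livers. Of the 2216 calls 1000 were made in all 9 of these fits, and 97 of 135 named genes kept theirs. Calls totalled 2213 with relative log expression factors, 2163 with no filter, 2307 with the 6 livers alone and 2027 with DESeq2. Of the 135 named genes 12 lost the call with library totals, 4 with upper-quartile factors and 2 with DESeq2.

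With the replicate number as a block, 2195 genes were called, 1133 higher and 1062 lower, 2022 of them shared with the fit without it, and 5 of 135 named genes lost the call. The deviations of same-numbered ConvD and GF+SCFA livers correlated at 0.02, -0.05 and 0.05. Those of GF and GF+SCFA livers correlated at 0.09, 0.08 and 0.14, and those of GF and ConvD livers at 0.03, -0.07 and 0.02. So few values cannot tell whether livers of the same number shared an order or a batch. With 3 livers a group, small differences could be missed. On simulated counts 50% of 1.5-fold changes were recovered. Far fewer genes changed there than were called here, so that share sets no limit for these data. The median size of the called differences was 0.508 on the log2 scale. List medians of ConvD minus GF+SCFA above 0.1 in size kept their sign under these settings, except in lists with few tested members. Those were aryl hydrocarbon receptor genes (0.145, and -0.031 with a minimum count of 50), B and plasma cell markers (1.71, and -0.18 with that filter) and gut markers (-0.30, and 0.19 without ConvD replicate 3). Smaller medians changed sign too, among them those of CAR and PXR targets (-0.07, and 0.03 without ConvD replicate 1) and bile acid synthesis (0.01 with library totals). With library totals those of clock genes (0.04), short-chain fatty acid genes (0.04) and ribosomal protein genes (0.06) did as well. Counts of list members of 4 or fewer often moved by 1 or 2 when a liver was left out. Many of the larger moves stand with their lists, though not all are printed.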

Other observations

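Among list members not described above, Tlr2, a receptor of bacterial lipoproteins, stood at 2.62, 4.79 and 3.14 CPM in ConvD, 1.42, 1.54 and 1.75 CPM in GF+SCFA and 1.41, 2.28 and 3.62 CPM in GF livers (log2 difference 1.16, SE 0.32, adjusted p = 0.0275), and its partner Tlr6 at 0.728, 0.781 and 0.691 CPM in ConvD, 0.3402, 0.348 and 0.164 CPM in GF+SCFA and 0.489, 0.495 and 0.469 CPM in GF livers. Tlr6 differed on the log2 scale by 1.35 (SE 0.36, adjusted p = 0.0201). Both are low in whole liver, and all ConvD livers lay above all GF+SCFA livers. As said above, Tlr6 passed the count filter only through the ConvD livers and could only be called higher. Nfil3, a repressor in the clock and in immune cells, was at 5.97, 6.79 and 6.43 CPM in ConvD, 11.3, 15.99 and 26.2 CPM in GF+SCFA and 9.13, 9.95 and 12.96 CPM in GF livers. The fitted Nfil3 difference was -1.48 (SE 0.30, adjusted p = 0.0142). Cyp17a1, a steroid hydroxylase listed with the female-biased genes, was at 3.35, 1.71 and 1.54 CPM in ConvD, 5.67, 5.71 and 7.85 CPM in GF+SCFA and 4.401, 3.96 and 7.89 CPM in GF livers. For Cyp17a1 the log2 difference was -1.53 (SE 0.35, adjusted p = 0.0169). Orm3, an acute phase carrier in a family of near-identical genes, was at 1.65, 1.47 and 2.92 CPM in ConvD, 4.42, 6.06 and 5.23 CPM in GF+SCFA and 3.97, 2.57 and 3.33 CPM in GF livers. Orm3 differed on the log2 scale by -1.39 (SE 0.24, adjusted p = 0.00196). Acmsd, which diverts tryptophan metabolites from NAD synthesis, was lower in ConvD, at 8.201, 8.54 and 14.9 CPM in ConvD, 19.7, 24.2 and 35.4 CPM in GF+SCFA and 24.99, 17.96 and 24.1 CPM in GF livers. The fitted Acmsd difference was -1.33 (SE 0.31, adjusted p = 0.0276). Trib3, a pseudokinase induced by stress, was higher, at 6.16, 6.54 and 10.1 CPM in ConvD, 3.402, 4.37 and 2.83 CPM in GF+SCFA and 4.08, 5.89 and 3.005 CPM in GF livers (log2 difference 1.09, SE 0.27, adjusted p = 0.0192), while most called genes of its list were lower. The calls of Tlr2 (adjusted p = 0.0955, 4 fits), Acmsd (adjusted p = 0.0934, 3 fits) and Cyp17a1 (adjusted p = 0.0689, 3 fits) were lost without ConvD replicate 2. The calls of Tlr6 (adjusted p = 0.0861, 3 fits) and Trib3 (adjusted p = 0.0729, 2 fits) were lost without GF+SCFA replicate 3. The call of Nfil3 (adjusted p = 0.0581, 2 fits) was lost without ConvD replicate 1.

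Sipa1l2, Ppfibp1 and Alcam were among the 5 genes that differed between GF+SCFA and GF livers. Against ConvD, Sipa1l2 gave 8.59, 7.76 and 8.61 CPM in ConvD, 3.63, 3.18 and 4.14 CPM in GF+SCFA and 9.62, 10.4 and 7.79 CPM in GF livers (log2 difference 1.19, SE 0.15, adjusted p = 0.000194), Ppfibp1 1.16 (adjusted p = 3.47e-06) and the adhesion molecule Alcam 0.29 (adjusted p = 0.024). The call of Alcam (adjusted p = 0.101, 4 fits) was lost without GF+SCFA replicate 3.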
